A study of Homo sapiens with 6 samples.

Results

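The data describe 55 RNAs of genes for RNA splicing, RNA helicases, messenger RNA (mRNA) export and nuclear transport that came down with PD-L1 in RNA immunoprecipitation. They are the rows, among 3152 listed RNAs, whose gene symbol starts with 1 of 20 prefixes, namely RBM, SRSF, HNRNP, PTBP, CELF, SF3, PRPF, LSM, SNRP, DDX, DHX, CPSF, CSTF, THOC, NXF, NUP, XPO, IPO, TNPO and KPN. RBM7 and the symbols on the authors' list of DNA damage genes were to be left out, and this removed 0 rows. The choice rests on symbols and not on measured values. The table itself was selected on these libraries, because the submitters' design text sets a minimum of 5-fold more with PD-L1 than with IgG. The direction of every comparison below was therefore set before any test.

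Precipitations were made from MDA-MB-231, a human triple-negative breast cancer cell line, after formaldehyde crosslinking and sonication. An antibody against PD-L1 was used in 3 libraries and its isotype IgG in 3 libraries, and no other treatment is named in the labels. PD-L1 sits in the cell membrane and is mainly studied because it binds PD-1 on T cells. The labels call the libraries repeats and do not say if each had its own culture. The p-values therefore reflect only how far these samples scatter, and that scatter may be technical.

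Splicing removes introns in the nucleus through small nuclear ribonucleoproteins and associated proteins, and is steered by RNA-binding proteins such as the SR proteins, hnRNP proteins and PTB proteins. RNA helicases of the DEAD-box and DEAH-box families use ATP to unwind RNA or to strip proteins from it. Finished mRNA is handed by the THO complex to export receptors of the NXF family and leaves through nuclear pores built from nucleoporins, while importins and exportins carry proteins and other RNAs through the same pores.

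Values are peak scores that the authors added up per gene and library. Where a value is 0, the gene had no scored peak in that library. The number of reads per library is not given in the sources used here, so depth is unknown. Summed over the listed RNAs, scores ranged from 123921 to 217732 in the PD-L1 libraries, lowest in repeat 3, and from 8353 to 19288 in the IgG libraries, lowest in repeat 1. PD-L1 repeats 1 and 2 were closely alike, and repeat 3 differed from them. The Spearman correlation over the 55 RNAs was 0.990 for the pair of PD-L1 repeats 1 and 2, whereas repeat 3 reached 0.651 and 0.653 with them, against 0.687 to 0.887 between IgG libraries. Over all listed RNAs the same values were 0.969, 0.746 and 0.741, and 0.623 to 0.740 between IgG libraries. Over the 55 RNAs, PD-L1 repeats 1 and 2 reached 0.702 to 0.786 with the IgG libraries, above their values with repeat 3. Over all listed RNAs they reached 0.560 to 0.662 with IgG, below their values with repeat 3. The ranking of scores was thus partly shared between the antibodies. These correlations run across RNAs of the same libraries and are given as a description. Of 10 mesenchymal and 10 epithelial breast cancer cell markers the table lists ZEB1 and CLDN4, and of 5 immune cell markers 0. A table restricted to RNAs enriched with PD-L1 cannot be used to check the line by its markers. The libraries are precipitates and no measure of RNA in the lysate was used here, so the abundance of an RNA and its recovery cannot be told apart, nor can fewer cells with an RNA and less of it per cell.

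Scores of these RNAs lay above those of the typical listed RNA with both antibodies. The 55 RNAs had a median of the mean PD-L1 score of 76.5, against 31.2 over all listed RNAs, and 42 of them lay at or above that table median. With IgG their median mean score was 6.26, against 1.72 over the table. A peak sum can grow with length, so scores were also divided by the merged exon length of each gene. Per kilobase (kb) of merged exons the median PD-L1 score was 10.3 for the 55 RNAs and 5.45 over the table, and the median IgG score was 0.881 and 0.271. Merged exons were of like length in both, with medians of 6926 and 6281 bases. The median number of exons was 18 against 12, and the median coding length 2445 against 1776 bases. Across the 55 RNAs the Spearman correlation of the mean PD-L1 score with merged exon length was 0.27, and with the mean IgG score 0.81, against 0.24 and 0.72 over the table.

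In the group 7 RNAs (12.7%) were at 0 in all 3 IgG libraries, against 31.7% of all listed RNAs. They were PTBP2, XPO4, NXF5, KPNA5, IPO7, DDX28 and the read-through RNA RBM14-RBM4. For the 48 others, dividing the mean PD-L1 score by the mean IgG score gave a median ratio of 9.28 and a range of 5.06 to 44.7, against a median of 10.5 over the table. Of the 55 RNAs 50 (90.9%) were higher with PD-L1 in limma with Benjamini-Hochberg adjustment over the whole table (adjusted p under 0.05), against a background of 97.7% of the 3152 listed RNAs. The other 5 were RBM5, RBM14-RBM4, DDX58, NUP133 and IPO8. No RNA was lower (0 of 55 and 0 of 3152), also at an unadjusted p under 0.05, as the authors' selection fixes. The median log2 difference, on the log2(score + 1) scale, was 3.12 (quartiles 2.70 and 3.88), against 3.42 (2.82 and 4.24) over the table. The call depended on the pseudocount for some RNAs, with 44 of 55 passing at a pseudocount of 0.1 (88.8% of the table) and 35 when it was 0.01 (72.9%). Calls lost at 0.1 were those of RBMXL1, RBM19, PTBP3, NUP160, NUP107 and NUP35, and at 0.01 those of RBM6, RBM34, RBMS3, PRPF39, LSM5, DDX41, DHX36, DHX29 and IPO11 were lost too. If zeros took the smallest listed score, 1.81, in place of a pseudocount, the medians were 3.04 and 3.05. A minimum mean score of 10 left 44 of 47 passing (98.7% of the table), limma-trend gave 51 (98.2%) and a term for the repeat number 49 (98.1%). Without PD-L1 repeat 1 or 2 the count was 41 each time (87.8% and 86.6%), and without IgG repeats 1, 2 and 3 it was 45 (94.3%), 48 (96.2%) and 49 (95.8%). The 100 largest log2 differences of the 3152 listed RNAs included 1 of the 55, PTBP2, a count that was not tested.

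Scaling all libraries to an equal total of the listed scores removes the difference in total between PD-L1 and IgG libraries. It shifted the median of the table by -1.66, to 1.76. Scores of 0 stay at 0, so RNAs with zeros in IgG are shifted less. Fewer of the 55 RNAs (12.7%) than of the table (31.7%) were at 0 in all 3 IgG libraries. Then 6 of the 55 RNAs were higher and 3 lower with PD-L1, against 990 (31.4%) and 60 of the table, and 24 of the 55 (43.6%) had a difference below 0, against 20.8% of the table. The 6 were PTBP2, XPO4, NXF5, KPNA5, DDX28 and IPO7. All 6 were at 0 in every IgG library, which scaling cannot raise, so the method itself favours them. The 3 lower were RBM25, DDX42 and DDX50.

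**Figure D1:**
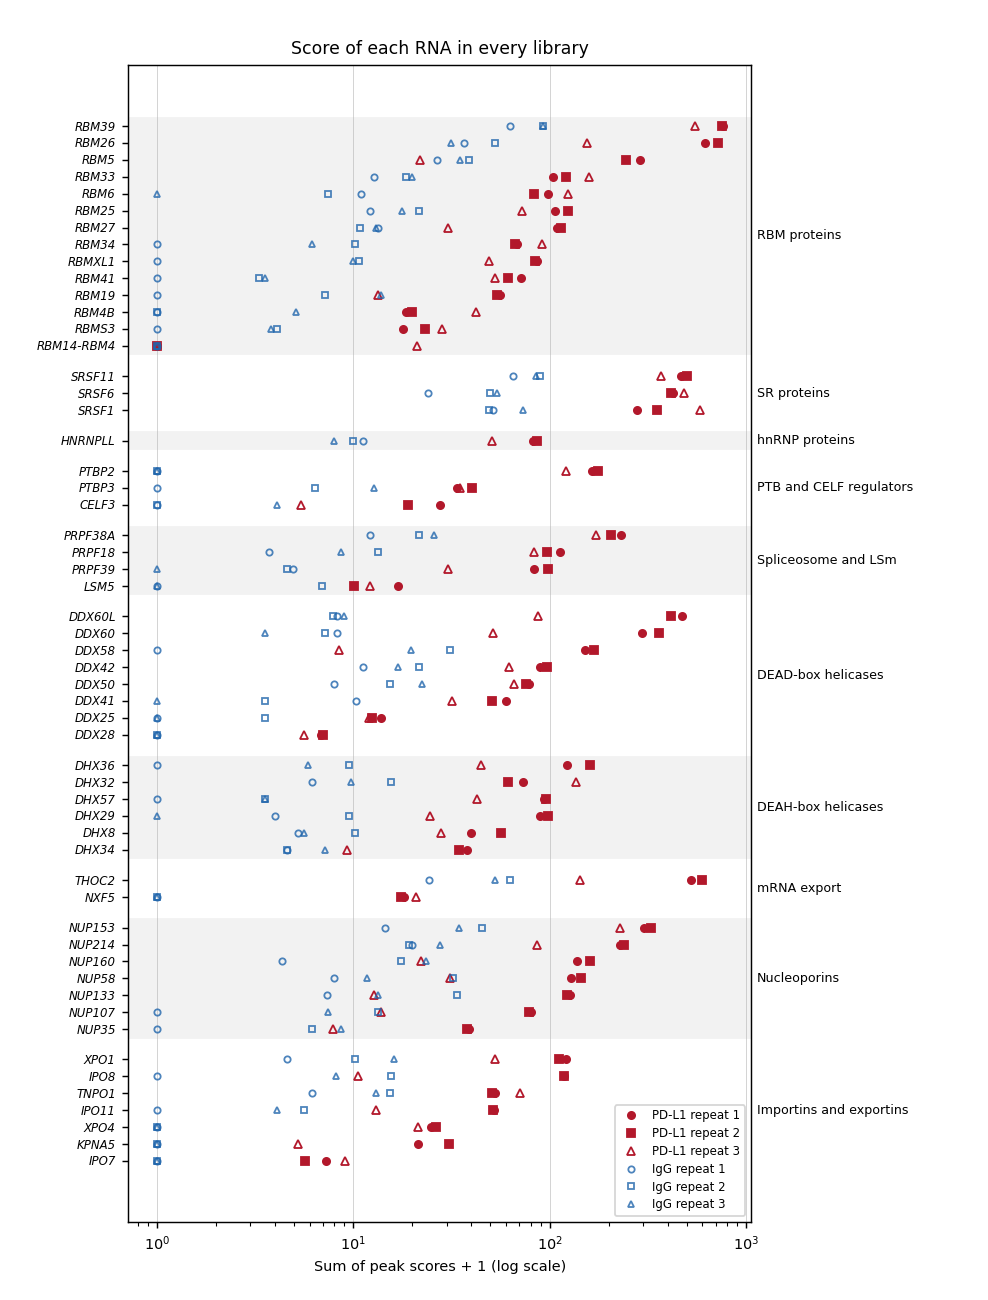
Sum of peak scores plus 1 (log scale) of each of the 55 RNAs in the 3 PD-L1 libraries (red) and the 3 IgG libraries (blue), grouped by class; a score of 0 plots at 1. In 46 of the 55 rows all red points lie right of all blue points, and the open red triangle, PD-L1 repeat 3, is the leftmost red point in 41 rows.

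Proteins with the RBM symbol, a naming group whose members mostly carry RNA-recognition motifs, gave 14 RNAs. Of these 12 were higher with PD-L1, against 97.7% of all listed RNAs. The annotation holds 52 protein-coding genes with this prefix. RBM39, a splicing cofactor related to U2AF, scored 759, 753 and 550.2 in PD-L1 repeats 1 to 3, against 61.98, 91.8 and 91.1 in IgG repeats 1 to 3. The groups were far apart, and the log2 difference was 3.07 ± 0.32 (SE; limma adjusted p = 0.000296). RBM26, a zinc finger protein of nuclear RNA decay, scored 620.3, 723 and 155 in PD-L1 repeats 1 to 3, against 35.7, 51.95 and 30.6 in IgG repeats 1 to 3. Repeat 3 was well below the other PD-L1 libraries but above every IgG library, with a log2 difference of 3.39 ± 0.65 (limma adjusted p = 0.00316). Its paralogue RBM27 had the same form, at 108, 114 and 29.5 in PD-L1 repeats 1 to 3, against 12.4, 9.78 and 12.1 in IgG repeats 1 to 3. RBM33 scored 103, 121 and 157 in PD-L1 repeats 1 to 3, against 11.8, 17.5 and 19.03 in IgG repeats 1 to 3, and here repeat 3 was the highest library (log2 difference 2.91 ± 0.33).

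RBM5 and RBM6 are splicing regulators encoded next to each other on chromosome 3, and the annotation has them share up to 166 bases of exon on the same strand. They came down differently in PD-L1 repeat 3. RBM5 scored 287, 244 and 20.9 in PD-L1 repeats 1 to 3, against 25.7, 37.8 and 33.96 in IgG repeats 1 to 3. Its repeat 3 score lay below all IgG scores, and its log2 difference of 1.81 ± 1.02 did not pass (limma adjusted p = 0.127). When PD-L1 repeat 3 was left out it was 3.01 and passed (limma adjusted p = 0.000666). RBM6 scored 96.97, 82.4 and 123 in PD-L1 repeats 1 to 3, against 9.97, 6.43 and 0 in IgG repeats 1 to 3, highest in repeat 3, with a log2 difference of 4.53 ± 0.92 (limma adjusted p = 0.00387). The difference between the neighbours was not tested.

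RBM19, a factor of ribosome biogenesis, scored 55.1, 52.97 and 12.4 in PD-L1 repeats 1 to 3, against 0, 6.17 and 12.9 in IgG repeats 1 to 3. Repeat 3 fell within the IgG range, and the adjusted p of 0.0413 in limma was lost when any 1 PD-L1 library, IgG repeat 1 or IgG repeat 2 was left out. It was also lost with the replicate block (limma adjusted p = 0.0541) and at pseudocounts of 0.1 and 0.01 (0.0995 and 0.150). RBM14-RBM4, a read-through RNA of neighbouring genes, was scored in PD-L1 repeat 3 alone, at 20.2, and at 0 in the other 5 libraries. Its log2 difference of 1.47 ± 1.22 was the smallest in the group and did not pass (limma adjusted p = 0.275). It shares exons with RBM14 and RBM4, and RBM4B is a close copy of RBM4 beside it, so how reads were split between them is uncertain. RBM4B itself scored 17.6, 18.9 and 41.3 in PD-L1 repeats 1 to 3, against 0, 0 and 4.12 in IgG repeats 1 to 3, 2.27 times as high in repeat 3 as in the mean of the other PD-L1 libraries. RBMXL1, a retrocopy of RBMX, is uncertain for the same reason, and in the annotation it shares up to 337 bases of exon with KYAT3 on the same strand. It scored 84.98, 83.1 and 48.3 in PD-L1 repeats 1 to 3, against 0, 9.77 and 9.0 in IgG repeats 1 to 3. The remaining RBM RNAs were RBM25, a U1-associated splicing regulator, RBM34, RBM41 and RBMS3. Their mean PD-L1 scores lay between 22.2 and 99.9 and their log2 differences between 2.56 and 4.76, and all 4 passed.

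All 3 listed SR protein RNAs, of 12 such genes in the annotation, were higher with PD-L1, as were 97.7% of all listed RNAs. SR proteins bind exonic enhancers and recruit the spliceosome. SRSF1 scored 277, 352 and 579.8 in PD-L1 repeats 1 to 3, against 50.8, 48.3 and 72.5 in IgG repeats 1 to 3, with a log2 difference of 2.75 ± 0.39 (limma adjusted p = 0.000947). SRSF6 scored 425, 415 and 481 in PD-L1 repeats 1 to 3, against 22.96, 48.8 and 53.3 in IgG repeats 1 to 3 (log2 difference 3.46 ± 0.40). SRSF1 and SRSF6 were highest in PD-L1 repeat 3. SRSF11 scored 468, 502 and 369.5 in PD-L1 repeats 1 to 3, against 64.4, 88.6 and 83.9 in IgG repeats 1 to 3 (log2 difference 2.49 ± 0.30), with repeat 3 lowest. Per kb of merged exons SRSF1 and SRSF6 had the highest mean PD-L1 scores of the 55 RNAs, at 120.6 and 95.9. RBM39 at 57.6 and SRSF11 at 52.7 followed. In the annotation SRSF1 shares up to 1051 bases of exon with the protein-coding gene AC015813.2 on the same strand. How reads were split between these 2 genes is uncertain. The per kb scores of the SR protein RNAs were high with IgG as well. Their class median with IgG was 9.32 per kb against 0.271 over the table, and the ratios of group means lay between 5.66 and 10.6. With rescaled libraries the log2 differences of all 3 were below 0.

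**Figure D2:**
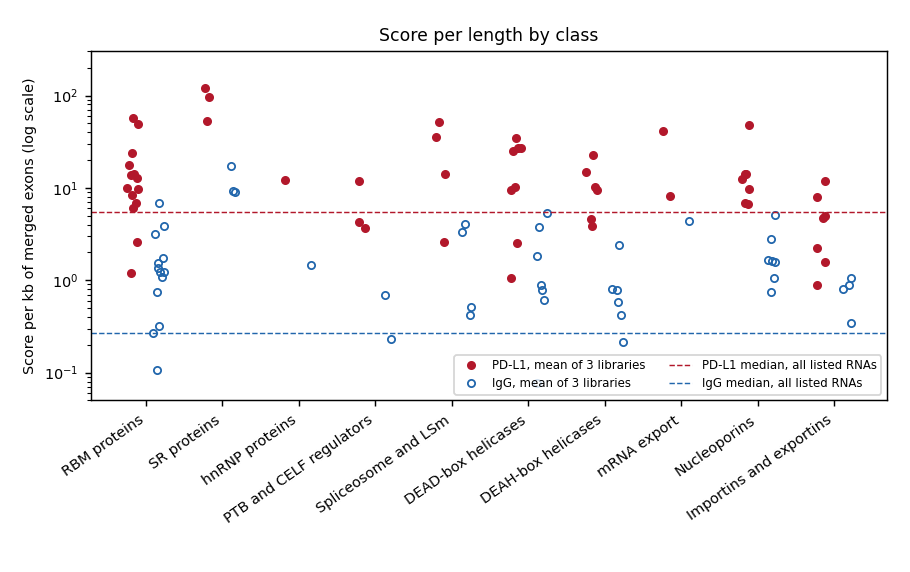
Mean score per kb of merged exons (log scale) of each RNA in PD-L1 libraries (filled red, n = 3) and IgG libraries (open blue, n = 3) by class, with dashed lines at the table medians of 5.45 and 0.271; RNAs at 0 with IgG have no blue point. The SR protein RNAs are high with both antibodies.

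HNRNPLL, a regulator of alternative splicing known from lymphocytes, was the single listed hnRNP RNA of 27 such genes in the annotation. It scored 81.4, 84.9 and 49.9 in PD-L1 repeats 1 to 3, against 10.3, 9.0 and 6.95 in IgG repeats 1 to 3, with a log2 difference of 2.88 ± 0.34 (limma adjusted p = 0.000488).

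Polypyrimidine tract binding (PTB) and CELF proteins gave 3 RNAs, all higher with PD-L1, as were 97.7% of all listed RNAs. PTBP2, the PTB protein that neurons use in place of PTBP1, scored 163, 175 and 119.6 in PD-L1 repeats 1 to 3, and was at 0 in every IgG library. Its log2 difference of 7.24 ± 0.29 (limma adjusted p = 5.45e-05) ranked 5 of 3152 in the table and was the largest of the 55, followed by DHX57. Under each of the 13 alternatives run it passed the threshold. PTBP3 scored 32.7, 39.5 and 34.02 in PD-L1 repeats 1 to 3, against 0, 5.4 and 11.8 in IgG repeats 1 to 3. Its PD-L1 scores were close together and its IgG scores were not, and the adjusted p of 0.0182 in limma was lost when any 1 PD-L1 library was left out. CELF3, known from brain, scored 26.6, 18.1 and 4.43 in PD-L1 repeats 1 to 3, against 0, 0 and 3.09 in IgG repeats 1 to 3 (log2 difference 3.15 ± 0.84, limma adjusted p = 0.011), and did not pass without PD-L1 repeat 1 or 2.

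All 4 RNAs of spliceosome and LSm proteins were higher with PD-L1, as were 97.7% of all listed RNAs. The annotation holds 49 genes with these prefixes, and these 4 were listed. None of the SF3 and SNRP symbols was among them. PRPF38A, a protein of the activating spliceosome, scored 229, 205 and 172 in PD-L1 repeats 1 to 3, against 11.2, 20.6 and 24.7 in IgG repeats 1 to 3 (log2 difference 3.41 ± 0.38, limma adjusted p = 0.000381). PRPF18, which acts in the second step of splicing, scored 111, 95.6 and 82.3 in PD-L1 repeats 1 to 3, against 2.72, 12.4 and 7.72 in IgG repeats 1 to 3 (log2 difference 3.68 ± 0.52). These groups were well separated in all libraries. PRPF39, associated with U1, scored 82.6, 96.7 and 29.6 in PD-L1 repeats 1 to 3, against 3.93, 3.6 and 0 in IgG repeats 1 to 3 (log2 difference 4.48 ± 0.79). LSM5, a subunit of the ring that binds U6 RNA, scored low, at 15.95, 9.07 and 11.2 in PD-L1 repeats 1 to 3, against 0, 5.92 and 0 in IgG repeats 1 to 3, and its adjusted p of 0.0169 in limma was lost when any 1 PD-L1 library was left out. The prefixes CPSF and CSTF, for cleavage and polyadenylation at the 3' end, had 0 listed RNAs of 11 genes.

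Helicases gave 14 RNAs, 8 with DDX symbols and 6 with DHX symbols, and 13 were higher with PD-L1, against 97.7% of all listed RNAs. The family names come from motif II, which binds the magnesium ion of ATP, and the codons for it are shown because they vary among these RNAs. In the coding sequences of GENCODE release 29 (build GRCh38) motif II was found in 13 of the 14, as codons for aspartate, aspartate or glutamate, any residue, and aspartate or histidine downstream of the ATP-binding loop. For DHX32 the search found no match in its longest coding sequence. The helicase class names in the figures follow the DDX and DHX symbols and not these codons. The capitals mark the 12 bases of motif II in stretches of 30 coding bases, 5′ to 3′ on the sense strand.
DDX25: tttgtcctgGATGAAGCAGATgtgatgatt
DDX28: ttggtgttgGATGAGGCAGACacactgctg
DDX41: ctggccctgGACGAGGCTGACcgcatgatc
DDX42: cttgtgtttGATGAAGCAGATcgaatgttt
DDX50: gttgtgcttGATGAAGTGGATcagatgtta
DDX58: atgatatttGATGAATGCCACaacactagt
DDX60: gttatatttGATGAGGTTCATtgtcttggt
DDX60L: gttatatttGATGAGGTCCATtatcttggc
DHX29: gttattgtaGATGAGGTTCATgaaagaagt
DHX34: ctgattgtgGATGAAGTCCATgagcggcat
DHX36: atcgtacttGATGAAATCCATgaaagaaat
DHX57: atcattgttGATGAAGTTCATgagaggaca
DHX8: atcatgttgGACGAGGCACATgagaggaca

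The third codon of motif II was for alanine, as in the family names, in 5 of the 13 RNAs (DDX25, DDX28, DDX41, DDX42 and DHX8) and for another residue in the other 8. The fourth codon was for aspartate in 5 DDX RNAs (DDX25, DDX28, DDX41, DDX42 and DDX50) and for histidine in the 3 other DDX RNAs (DDX58, DDX60 and DDX60L) and in the 5 matched DHX RNAs.

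DDX60 and DDX60L are related, interferon-inducible helicases encoded side by side on chromosome 4, both with histidine codons above. DDX60L scored 473, 416 and 86.3 in PD-L1 repeats 1 to 3, against 7.25, 6.93 and 7.97 in IgG repeats 1 to 3, a ratio of means of 44.0 and a log2 difference of 4.95 ± 0.69 (limma adjusted p = 0.000898). DDX60 scored 294, 361 and 50.4 in PD-L1 repeats 1 to 3, against 7.25, 6.17 and 2.57 in IgG repeats 1 to 3, a ratio of 44.1 (log2 difference 4.89 ± 0.83, limma adjusted p = 0.00196). In both, repeat 3 was far below PD-L1 repeats 1 and 2 and still above all IgG scores. Reads shared by the pair could have been split between them, so their values may not be independent.

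DDX58 encodes RIG-I, the cytosolic sensor of viral RNA. It scored 149.7, 168 and 7.44 in PD-L1 repeats 1 to 3, against 0, 30.1 and 18.8 in IgG repeats 1 to 3. PD-L1 repeat 3 was below IgG repeats 2 and 3, at 0.0469 times the mean of the other PD-L1 libraries, the lowest such ratio in the group. The log2 difference of 2.82 ± 1.73 did not pass (limma adjusted p = 0.155), nor under any of the alternatives run, without repeat 3 included.

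DDX42, which works with the U2 branch site complex, scored 88, 96.1 and 61.1 in PD-L1 repeats 1 to 3, against 10.3, 20.6 and 15.95 in IgG repeats 1 to 3 (log2 difference 2.34 ± 0.37, limma adjusted p = 0.00153). DDX50, a nucleolar helicase, scored 77.3, 74.9 and 65.1 in PD-L1 repeats 1 to 3, against 6.95, 14.4 and 21.4 in IgG repeats 1 to 3 (log2 difference 2.39 ± 0.44). All PD-L1 scores of both lay above all IgG scores, and with rescaled libraries both were lower with PD-L1 (log2 differences -1.18 and -1.11). DDX41, tied to splicing and innate sensing, DDX25, known from testis, and DDX28, of mitochondrial ribosome assembly, had mean PD-L1 scores of 46.5, 11.8 and 5.48. DDX28 was at 0 in all IgG libraries.

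All 6 RNAs with DHX symbols were higher with PD-L1, as were 97.7% of all listed RNAs. DHX36, which resolves G-quadruplexes, scored 122, 159 and 43.96 in PD-L1 repeats 1 to 3, against 0, 8.49 and 4.89 in IgG repeats 1 to 3 (log2 difference 4.65 ± 0.96, limma adjusted p = 0.00413). DHX57 scored 93.2, 94.4 and 41.9 in PD-L1 repeats 1 to 3, against 0, 2.57 and 2.57 in IgG repeats 1 to 3, with a ratio of group means of 44.7, the highest among the 48 RNAs with an IgG score above 0 (log2 difference 4.96 ± 0.64, limma adjusted p = 0.000676). DHX29, a helicase of ribosomal scanning, scored 88.2, 97.01 and 23.5 in PD-L1 repeats 1 to 3, against 3.02, 8.49 and 0 in IgG repeats 1 to 3 (log2 difference 4.15 ± 0.97). In these 3, repeat 3 was the lowest PD-L1 library. DHX32 was the single helicase RNA with repeat 3 above both other PD-L1 libraries, at 72.5, 60.4 and 135 in PD-L1 repeats 1 to 3, against 5.14, 14.7 and 8.74 in IgG repeats 1 to 3 (log2 difference 3.12 ± 0.49). Its exons overlap those of BCCIP on the opposite strand. Exons of DDX28, DDX42 and DHX8 also overlap protein-coding genes on the opposite strand, and in these RNAs repeat 3 was the lowest PD-L1 library. DHX8, which releases mRNA from the spliceosome, and DHX34, of nonsense-mediated decay, had mean scores of 40.3 and 26.3 and log2 differences of 2.56 and 2.11. DHX34 did not pass without PD-L1 repeat 1 or 2.

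**Figure D3:**
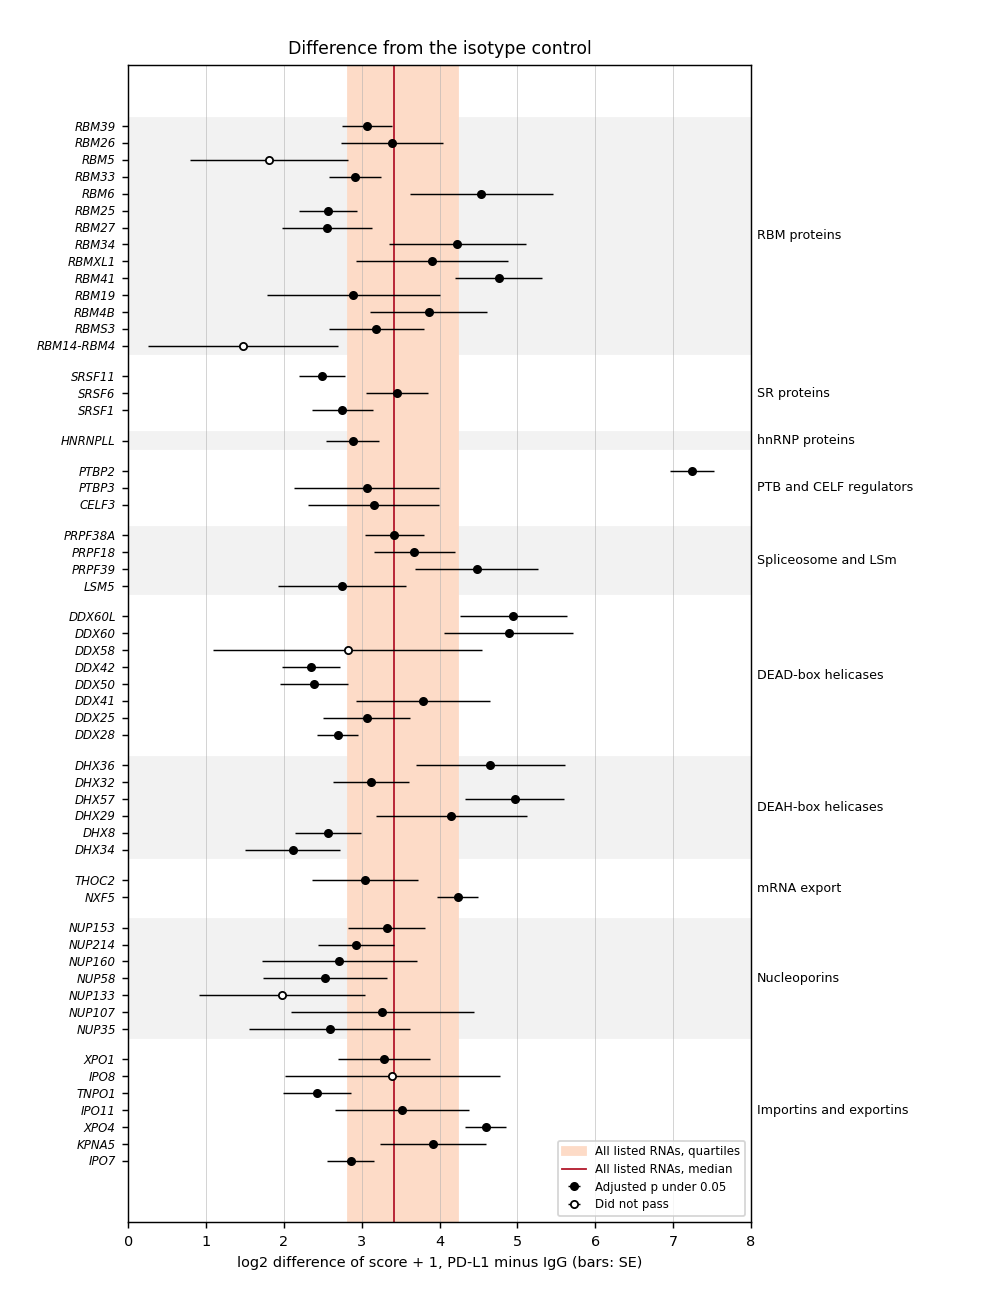
The log2 difference of score + 1, PD-L1 minus IgG, with its SE (limma, n = 3 against 3) for each RNA; filled points passed at an adjusted p under 0.05, open points did not. The red line and band are the median (3.42) and quartiles of all listed RNAs, and PTBP2 at 7.24 lies far to the right of the others.

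For mRNA export THOC2 and NXF5 were listed, of 11 genes with THOC and NXF symbols. THOC2, the scaffold of the THO complex, scored 522, 595 and 142 in PD-L1 repeats 1 to 3, against 23.3, 61.7 and 51.7 in IgG repeats 1 to 3 (log2 difference 3.04 ± 0.68, limma adjusted p = 0.00586). NXF5, a relative of the export receptor NXF1, scored 17.2, 16.5 and 19.8 in PD-L1 repeats 1 to 3 and was at 0 in every IgG library, with a log2 difference of 4.23 ± 0.26 (limma adjusted p = 6.54e-05). The level of THOC2 was high with a wide spread and that of NXF5 low with a narrow one.

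Nucleoporins gave 7 RNAs, of 25 genes with the NUP prefix, and 6 were higher with PD-L1, against 97.7% of all listed RNAs. NUP153, of the nuclear basket, scored 300.1, 329 and 228 in PD-L1 repeats 1 to 3, against 13.6, 44.5 and 33.7 in IgG repeats 1 to 3 (log2 difference 3.32 ± 0.49, limma adjusted p = 0.00116). NUP214, of the cytoplasmic filaments, scored 229, 238 and 85.2 in PD-L1 repeats 1 to 3, against 19.1, 18.3 and 26.8 in IgG repeats 1 to 3 (log2 difference 2.93 ± 0.49). Both RNAs scored higher in each PD-L1 library than in any IgG library.

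NUP107, NUP133 and NUP160 encode subunits of the Y complex, the outer scaffold of the pore. NUP160 scored 138, 160.0 and 21.2 in PD-L1 repeats 1 to 3, against 3.32, 16.5 and 22.4 in IgG repeats 1 to 3 (log2 difference 2.71 ± 1.00, limma adjusted p = 0.0359). NUP133 scored 126, 122 and 11.7 in PD-L1 repeats 1 to 3, against 6.34, 32.7 and 12.3 in IgG repeats 1 to 3. NUP107 scored 79.1, 77.7 and 12.9 in PD-L1 repeats 1 to 3, against 0, 12.4 and 6.43 in IgG repeats 1 to 3 (log2 difference 3.26 ± 1.17, limma adjusted p = 0.0331). In repeat 3 NUP160 and NUP133 lay within their IgG scores, and NUP107 lay just above its highest IgG score. The log2 difference of NUP133, 1.97 ± 1.07, did not pass (limma adjusted p = 0.115). Leaving out PD-L1 repeat 3 gave 3.07, which passed (limma adjusted p = 0.0188), while NUP160 and NUP107 did not pass without PD-L1 repeat 1 or 2 or without IgG repeat 1, and NUP160 also not without IgG repeat 2. At pseudocounts of 0.1 and 0.01 neither passed, with limma adjusted p = 0.0551 and 0.0703 for NUP160 and 0.0837 and 0.133 for NUP107.

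NUP58, of the central channel, scored 128, 143 and 30.1 in PD-L1 repeats 1 to 3, against 6.95, 31.4 and 10.8 in IgG repeats 1 to 3 (log2 difference 2.53 ± 0.80, limma adjusted p = 0.0211), and NUP35, of the inner ring, 37.7, 36.8 and 6.9 in PD-L1 repeats 1 to 3, against 0, 5.15 and 7.72 in IgG repeats 1 to 3 (log2 difference 2.59 ± 1.03, limma adjusted p = 0.0473). For each the lowest PD-L1 score lay within the IgG range. NUP58 did not pass without PD-L1 repeat 1 or 2 or IgG repeat 1 or 3, and NUP35 not without PD-L1 repeat 1 or 2 or IgG repeat 1 or 2. NUP35 also did not pass with the replicate block (limma adjusted p = 0.0618) or at pseudocounts of 0.1 and 0.01 (0.104 and 0.155).

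Importins and exportins gave 7 RNAs, of 24 genes with these prefixes, and 6 were higher with PD-L1, against 97.7% of all listed RNAs. XPO1, the main export receptor for proteins and several RNA classes, scored 119.9, 110.3 and 51.9 in PD-L1 repeats 1 to 3, against 3.63, 9.26 and 15.2 in IgG repeats 1 to 3 (log2 difference 3.29 ± 0.59, limma adjusted p = 0.00236). TNPO1, the import receptor of hnRNP proteins, scored 51.5, 50.2 and 69.9 in PD-L1 repeats 1 to 3, against 5.14, 14.4 and 12.1 in IgG repeats 1 to 3 (log2 difference 2.42 ± 0.44), highest in repeat 3. IPO11 scored 50.9, 50.3 and 12.04 in PD-L1 repeats 1 to 3, against 0, 4.63 and 3.09 in IgG repeats 1 to 3 (log2 difference 3.52 ± 0.86). IPO8 scored 118, 118 and 9.56 in PD-L1 repeats 1 to 3, against 0, 14.7 and 7.2 in IgG repeats 1 to 3. Its repeat 3 score lay below IgG repeat 2, and the log2 difference of 3.39 ± 1.38 just missed the threshold (limma adjusted p = 0.0505). It passed without PD-L1 repeat 3 (0.0343) and without IgG repeat 2 (0.0351, both limma adjusted p) and in 4 other alternatives, with an adjusted p from 0.0343 to 0.686 over all of them.

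XPO4, KPNA5 and IPO7 were at 0 in all 3 IgG libraries. XPO4, an exportin of the translation factor eIF5A, scored 23.8, 25.4 and 20.3 in PD-L1 repeats 1 to 3 (log2 difference 4.59 ± 0.26, limma adjusted p = 5.88e-05). KPNA5, an importin alpha, scored 20.4, 29.8 and 4.25 in PD-L1 repeats 1 to 3 (log2 difference 3.92 ± 0.68). IPO7, an importin of ribosomal proteins, scored 6.26, 4.72 and 8.14 in PD-L1 repeats 1 to 3 (log2 difference 2.86 ± 0.30). The scores of XPO4 were close together, those of IPO7 were low in all PD-L1 libraries, and KPNA5 in repeat 3 was far below the others.

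The lowest PD-L1 score was above the highest IgG score in 46 of the 55 RNAs (83.6%), against 95.9% of the listed RNAs. The 9 that overlapped were RBM5, RBM19, RBM14-RBM4, DDX58, NUP35, NUP58, NUP133, NUP160 and IPO8. Without PD-L1 repeat 3 the groups were apart in 54 of 55, against 98.0% of the listed RNAs, and RBM14-RBM4 alone overlapped. The limma count without repeat 3 was again 50 of 55, against 90.6% of the listed RNAs, with 47 RNAs shared. RBM5, NUP133 and IPO8 then passed and RBM19, PTBP3 and LSM5 did not.

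Repeat 3 was below both other PD-L1 libraries in 41 of the 55 RNAs (74.6%), against 63.8% of the table, and above both in 12 (21.8%), against 23.9%. The ratio of repeat 3 to the mean of repeats 1 and 2 had a median of 0.587 in the group and 0.715 over the table, and was under 0.25 in 16 RNAs (29.1%), against 9.45% of the table. In 65 listed genes of the same processes with other symbols, described below, its median was 0.562. There, repeat 3 was below both others in 76.9%, and the ratio was under 0.25 in 18.5%. The medians of their 7 lists ran from 0.323, for mRNA export and pore genes, to 0.68, for splicing regulators. The classes differed in this ratio as a description. It was lowest in the 7 nucleoporin RNAs, with a median of 0.185 and a range from 0.0943 to 0.726, all 7 below both other libraries. Among the importins and exportins the median was 0.451, among the DHX RNAs 0.380 and among the DDX RNAs 0.615. The median ratio was 0.728 in the RBM RNAs and 1.15 in the 3 SR protein RNAs. With libraries rescaled to the same sum, which lifts repeat 3, it was below both others in 24 of 55 (43.6%), against 34.0% of the table. It was then above both others in 28 of the 55, against 1775 of the 3152 listed RNAs. After rescaling, repeat 3 was therefore more often the highest than the lowest PD-L1 library in the group. In the nucleoporin RNAs it stayed below both others in 6 of the 7.

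**Figure D4:**
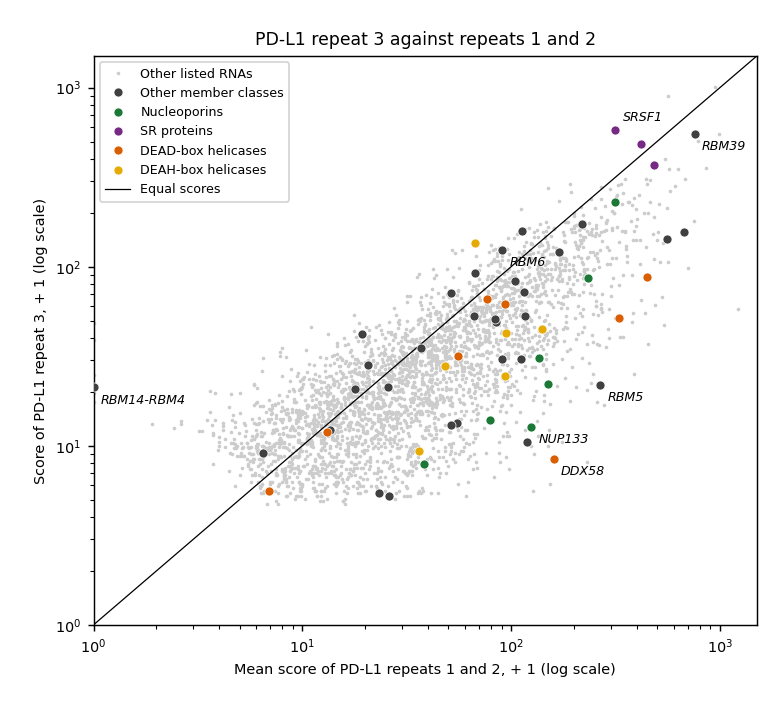
Score of PD-L1 repeat 3 plus 1 against the mean of PD-L1 repeats 1 and 2 plus 1 (log scales) for all listed RNAs (grey) and the 55 RNAs (coloured by class); the line marks equal scores. The 7 nucleoporin RNAs (green) all lie below the line, while SRSF1, SRSF6 and RBM6 lie above it.

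RNAs with more exons tended to have a lower repeat 3 ratio. The Spearman correlation between exon number and this ratio was -0.50 over 54 of the RNAs and -0.34 over the table, and with coding length it was -0.41 and -0.17. GC content of the transcript showed 0.034 and 0.056. The nucleoporin RNAs had a median of 26 exons and the SR protein RNAs 6. All points come from the same 3 libraries, so these values are a description, and the part of exon number in the repeat 3 scores was not tested.

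**Figure D5:**
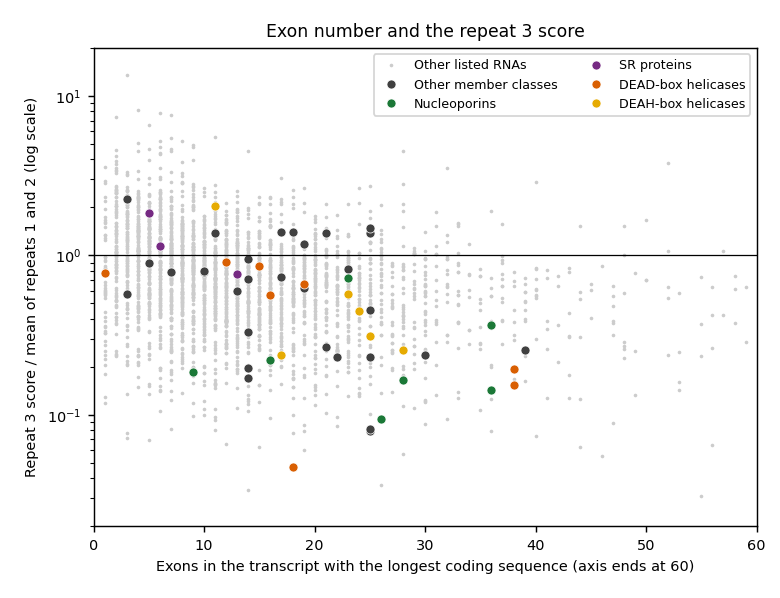
Ratio of the PD-L1 repeat 3 score to the mean of repeats 1 and 2 (log scale) against the number of exons of the transcript with the longest coding sequence, for all listed RNAs (grey) and the 55 RNAs (coloured by class); the line marks a ratio of 1. Nucleoporin RNAs sit between 0.0943 and 0.726.

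Genes of the same processes with other symbols were listed too, as 65 of 231 on 7 companion lists, a gene on 2 lists being counted once. Of these 61 passed, 4 did not and 0 were lower (also at an unadjusted p under 0.05), with a median log2 difference of 3.44, against 97.7% passing and 3.42 over the table. Spliceosome components and splicing factors had 14 of 68 genes in the table, 11 of them higher (median 3.07). U2SURP, an SR-related protein of the U2 particle, scored 255, 303 and 15.8 in PD-L1 repeats 1 to 3, against 14.5, 29.3 and 32.7 in IgG repeats 1 to 3, and did not pass (limma adjusted p = 0.119). CWF19L2 scored 160.3, 134 and 84.5 in PD-L1 repeats 1 to 3, against 0, 2.83 and 2.83 in IgG repeats 1 to 3 (log2 difference 5.65 ± 0.62). U2SURP overlapped with IgG in repeat 3, and CWF19L2 did not.

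Splicing regulators and their kinases had 15 of 55 genes, 14 higher (median 2.65), led by SREK1, TIAL1 and SRPK1 with mean PD-L1 scores of 379, 311 and 271, against 73.4, 33.1 and 43.5 with IgG. Exon junction and nonsense-mediated decay factors had 6 of 19, all higher (median 3.73), led by NBAS, SMG1 and UPF2 at 319, 104 and 102, against 29.1, 4.8 and 4.12. Other RNA helicases had 8 of 20, all higher (median 4.04), among them DICER1 and YTHDC2 at 311 and 225, against 34.5 and 9.17. The list for cleavage and polyadenylation, which also holds Integrator and CPEB genes, had 15 of 29, all higher (median 3.74). INTS2, PAPOLA and INTS3 led them at 395, 206 and 95.8, against 30.4, 31.1 and 16.6. FIP1L1, WDR33, PCF11, PAPOLG and RBBP6 were also among the 15. The absence of CPSF and CSTF is therefore an absence of symbols and not of the process.

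Among mRNA export and pore genes without the prefixes 5 of 30 were listed, all higher (median 3.11). They included AHCTF1, which recruits the Y complex to chromatin, at 211, 231 and 85.3 in PD-L1 repeats 1 to 3, against 0, 13.6 and 20.8 in IgG repeats 1 to 3. GLE1, the activator of the export helicase, scored 215, 228 and 71.5 in PD-L1 repeats 1 to 3, against 28.7, 30.6 and 39.1 in IgG repeats 1 to 3, and MCM3AP 152, 193 and 113 in PD-L1 repeats 1 to 3, against 13, 16.2 and 20.8 in IgG repeats 1 to 3. Nuclear transport genes without the prefixes had 3 of 12, RANBP17, SNUPN and RANGRF, all higher (median 4.48) and all at 0 with IgG. RANBP17, an importin relative, scored 125, 144 and 61.8 in PD-L1 repeats 1 to 3.

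In the authors' deposited table of Gene Ontology terms RNA processing is over-represented among the listed RNAs, with 185 of 868 genes and a p-value of 0.0127, and of its 47 entries 0 name splicing, RNA export or nuclear transport. Of protein-coding genes in the annotation with the 20 prefixes 55 of 275 (20%) were listed, against 3132 of 19936 (15.7%) of all protein-coding genes. Exons of 22 of the 55 overlapped exons of a gene on the opposite strand, 6 with a protein-coding partner. On the same strand 10 of the 55 shared exon bases with another protein-coding gene. Whether peaks were assigned by strand is not given in the sources used here. No test was made of the listed share, because the RNAs below the 5-fold limit were not analysed here.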

How the data were processed

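RNA immunoprecipitation libraries of MDA-MB-231 cells, 3 with a PD-L1 antibody and 3 with isotype IgG, were compared. The deposited values are a score per gene and library, the sum of peak scores that the authors made; 3152 RNAs at least 5-fold higher with PD-L1 were kept, per the series' design text. Tools listed in the submitters' processing notes, without their roles, are HOMER 4.8.3 and TopHat2 2.0.14, and the build is hg19. The p-value of the Gene Ontology entry is the authors' deposited one. Depth is unknown, so no counting intervals are given.

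Scores were taken as log2(score + 1) and tested with limma 3.58.1 (R 4.3.3) on the whole table, with Benjamini-Hochberg adjustment over all 3152 RNAs and a threshold of 0.05. The fit was also run on simulated log2 scores with independent normal scatter. They held no zeros, no library-wide differences and no 5-fold selection, so that run does not check the calls on this table. Because the table was selected on the same contrast, its tests are no independent evidence of direction. Fold values on this scale understate the change of low scores. Lengths, exons and coding sequences came from GENCODE release 29, a build other than that of the files, so no coordinates are given.

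The members and lists were chosen with earlier results of these data known. Per-library values are given for up to 4 RNAs per class with the highest mean PD-L1 score, for those that overlapped or did not pass, and for the smallest and largest differences; for RBM6, RBM27, RBM4B, RBMXL1, DDX50, NUP107, XPO4, KPNA5 and IPO7 they were added after values were seen. Alternatives were the pseudocount, treatment of 0, library rescaling, a filter, limma-trend, a replicate block and leaving out each library. Values of some single RNAs on the companion lists are not reported here.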

Additional observations from a re-analysis of the deposited data

How the results depend on the processing

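Of the 55 RNAs 50 were higher with PD-L1, and 44 and 35 were at pseudocounts of 0.1 and 0.01, where the median log2 difference moved to 3.90 and 5.00 (3.12 at a pseudocount of 1); the cause was not tested. Setting 0 to the smallest score gave 51 (97.7% of the table), limma-trend 51 (98.2%), and a mean score of at least 10 left 44 of 47 (98.7%). Rescaling libraries to the same sum left 6 of the 55 and 990 listed RNAs (31.4%) higher and moved the median to 0.58. It left 8 of the 55 with all PD-L1 above all IgG scores, a count for which the share over the table was not computed. This alternative by construction removes the difference in total score between PD-L1 and IgG libraries and leaves scores of 0 at 0. The table median was then 1.76. The log2 difference was then below 0 for 24 RNAs, namely RBM39 -0.53, RBM26 -0.19, RBM5 -1.76, RBM33 -0.62, RBM25 -0.97, RBM27 -0.95, SRSF11 -1.11, SRSF6 -0.12, SRSF1 -0.84, HNRNPLL -0.58, PRPF38A -0.12, DDX42 -1.18, DDX50 -1.11, DHX32 -0.34, DHX8 -0.82, DHX34 -1.21, THOC2 -0.54, NUP153 -0.24, NUP214 -0.62, NUP160 -0.74, NUP58 -0.97, NUP133 -1.52, XPO1 -0.15 and TNPO1 -1.04. Leaving out each library in turn gave 41 to 50 RNAs higher, medians of 2.77 to 3.48, 2730 to 3032 listed RNAs higher, and 46 to 54 RNAs without overlap, the last chosen after seeing the data. The share of the table without overlap was 95.9% with all libraries and 98.0% without PD-L1 repeat 3, and was not computed for the other libraries.

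The repeat numbers were shared by PD-L1 and IgG libraries, but same-numbered libraries did not deviate together (correlations -0.121, 0.0709 and -0.079). With the replicate block 49 RNAs of the 55 and 3091 listed RNAs were higher and the median was 3.12. RBM19 and NUP35 then did not pass and IPO8 did, and the calls of the other 52 RNAs did not change. The unknown depth, 3 libraries a group and the selected table limit every value.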
